A study of Homo sapiens with 16 samples.

Results

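H3K4me3 was compared between myeloma-derived cells expressing NSD2 with the substitution D1240A and the same cells expressing NSD2 with the substitution F1295A. The members were all peaks of the 2 deposited H3K4me3 lists, 7712 in D1240A and 8239 in F1295A. Together these were 15951 of the 45429 peaks in the 8 lists of the series. The cells were TKO, a derivative of the multiple myeloma line KMS-11 whose labels give the genotype KMS-11 WHSC1(+/-) and the cell type plasma cell. WHSC1 is another name of NSD2, and all forms shared this genotype. Lists of the wild type form (WT) and of plain TKO cells, for which the labels name no form, served as context. The labels do not say how the NSD2 forms were introduced or whether a line was a single clone. Each form had 1 H3K4me3 sample, so no test between forms was possible, and intervals below are exact (Clopper-Pearson) 95% intervals for counting error only.

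NSD2 is a methyltransferase of lysine 36 of histone H3, and the t(4;14) translocation of myeloma drives its overexpression. H3K4me3 is a different mark, written by the SET1 and MLL (COMPASS) complexes and found at the starts of active and poised genes, above all at CpG-rich promoters to which CXXC-domain proteins recruit these enzymes. Broad H3K4me3 domains are typical of genes that define a cell's identity. In ChIPmentation, the assay used, chromatin is immunoprecipitated and then tagged with adaptors by a transposase. In bulk chromatin, fewer cells with the mark and less mark per cell cannot be told apart.

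The promoters of the leading genes with H3K4me3 in a single form, and none within 10 kb in the other, are shown first. Each is the RefSeq window (GRCh38.p14) from 250 bases before to 50 after the gene's start, 5′ to 3′, with every CpG in capitals. EVC and EVC2 are neighbouring, divergent genes whose products form a ciliary complex in Hedgehog signalling, and had H3K4me3 in D1240A and none in F1295A. Their peak was weak, at percentile 18.0 of total signal in the D1240A list. ADAMTSL4, which encodes a secreted matrix protein, and the neighbouring RefSeq gene LOC124904417 had H3K4me3 in F1295A and none in D1240A. The F1295A peak over them also covered the MCL1 locus, where D1240A had a narrower peak.
EVC (chr4:5710951-5711250, plus strand): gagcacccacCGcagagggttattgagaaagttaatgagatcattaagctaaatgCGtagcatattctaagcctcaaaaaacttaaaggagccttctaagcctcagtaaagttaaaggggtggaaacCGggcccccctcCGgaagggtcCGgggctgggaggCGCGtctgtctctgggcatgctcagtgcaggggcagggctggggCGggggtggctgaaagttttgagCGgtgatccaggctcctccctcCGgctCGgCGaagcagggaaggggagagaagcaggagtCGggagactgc
EVC2 (chr4:5708510-5708809, minus strand): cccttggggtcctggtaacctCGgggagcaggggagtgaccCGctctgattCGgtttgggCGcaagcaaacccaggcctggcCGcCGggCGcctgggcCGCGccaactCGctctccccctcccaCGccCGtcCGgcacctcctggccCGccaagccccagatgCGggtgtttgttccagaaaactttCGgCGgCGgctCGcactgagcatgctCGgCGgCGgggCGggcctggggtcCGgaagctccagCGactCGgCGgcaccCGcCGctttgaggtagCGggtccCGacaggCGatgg
ADAMTSL4 (chr1:150549158-150549457, plus strand): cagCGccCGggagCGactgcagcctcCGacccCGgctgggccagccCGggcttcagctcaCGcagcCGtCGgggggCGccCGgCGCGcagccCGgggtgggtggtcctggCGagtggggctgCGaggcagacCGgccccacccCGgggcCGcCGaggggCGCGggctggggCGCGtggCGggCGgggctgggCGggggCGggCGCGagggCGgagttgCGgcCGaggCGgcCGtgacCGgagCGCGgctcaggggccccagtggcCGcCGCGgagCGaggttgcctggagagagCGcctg
LOC124904417 (chr1:150550040-150550339, plus strand): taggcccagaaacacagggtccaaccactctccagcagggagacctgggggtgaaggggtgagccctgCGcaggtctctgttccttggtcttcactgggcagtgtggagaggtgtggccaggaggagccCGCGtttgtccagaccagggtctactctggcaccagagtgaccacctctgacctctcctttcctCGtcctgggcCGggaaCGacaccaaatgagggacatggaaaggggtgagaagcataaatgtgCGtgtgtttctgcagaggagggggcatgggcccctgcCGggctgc
The EVC2 window held 32 CpG and 71.3% G or C, and the EVC window 13 CpG and 57.7% G or C. The ADAMTSL4 window held 43 CpG and 82.3% G or C, while the LOC124904417 window held 8 CpG and 61.3% G or C. Both pairs therefore joined a CpG-rich window to a CpG-poorer one beneath a single peak.

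The lists were of similar length, but D1240A covered less sequence. D1240A had 0.936 times as many peaks as F1295A and 0.840 times the covered bases, 29.1 Mb in D1240A and 34.7 Mb in F1295A. Median peak width was 3352.5 bp in D1240A and 3701 bp in F1295A. Peaks of at least 6 kb numbered 608 (7.88%) in D1240A and 996 (12.1%) in F1295A. On both measures D1240A stood near WT, which covered 30.2 Mb with 587 such peaks, and above TKO, with 21.95 Mb and 191. Read totals are not part of the lists. Depth per library is therefore unknown, and its part in these differences was not tested. The weakest peak of D1240A had a total signal of 151948 and that of F1295A 168502, in the authors' units, which serve below for ranks and descriptions inside a list.

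The plasma cell label was checked on marker genes. Of 20 plasma cell identity genes, 14 had an H3K4me3 peak within 1 kb of the start in D1240A and 15 in F1295A, beside 8137 and 8680 of all 19974 genes. Of 25 B cell genes, 2 had one in D1240A and 3 in F1295A. In both forms it was 2 of 23 T, NK and myeloid markers and 1 of 14 stromal and endothelial markers. The plasma cell genes with no peak in either form were CD38, SLAMF7, LAX1, CD27 and TNFRSF13B. PRDM1, the factor that drives plasma cell differentiation, lay under one of the widest peaks, 24044 bp in D1240A and 23552 bp in F1295A. IRF4, a factor that myeloma cells depend on, had 10334 bp in D1240A and 11529 bp in F1295A. XBP1, which controls the secretory programme, had 11684 bp in D1240A and 10175 bp in F1295A. TNFRSF17, which encodes the surface receptor BCMA, had 7212 bp in D1240A and 9059 bp in F1295A. These lineage genes had broad H3K4me3 in both forms.

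Almost every D1240A peak had a counterpart in F1295A. A peak was called one-sided when no peak of the other list overlapped it by at least 1 bp. D1240A had 35 such peaks of 7712 (0.454%, interval 0.316% to 0.631%) and F1295A had 630 of 8239 (7.65%, interval 7.08% to 8.24%). Nearly all were weak. The median one-sided peak stood at percentile 3.02 of total signal in the D1240A list and percentile 4.90 in the F1295A list. In the lowest 25% of their own list lay 34 of the 35 D1240A peaks and 623 of the 630 F1295A peaks. Of the weakest decile of D1240A peaks, 96.2% had an F1295A peak, whereas 38.2% of the weakest decile of F1295A peaks had a D1240A peak. The excess of F1295A peaks also depended on list length. With the strongest peaks of each list taken to equal numbers, 175 D1240A peaks and 243 F1295A peaks were one-sided.

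**Figure D1:**
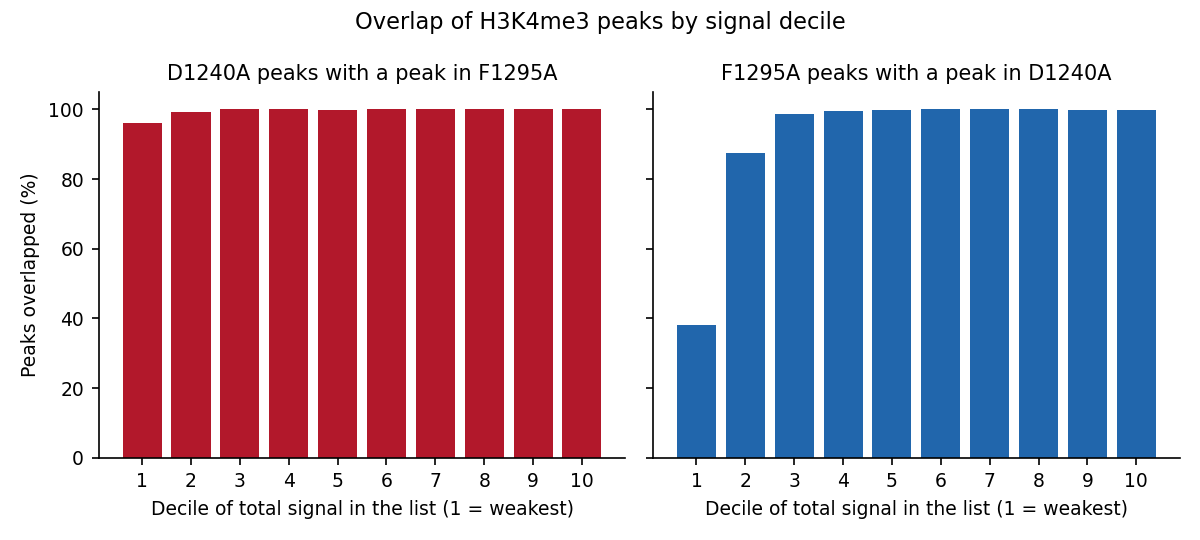
Share of H3K4me3 peaks (%) overlapped by the other list, by decile of total signal within the list, with D1240A peaks on the left and F1295A peaks on the right; bars are shares of all peaks in the decile, 1 library per form. The weakest decile stands at 96.2% for D1240A and 38.2% for F1295A, and from the third decile upward both lists are overlapped nearly in full.

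A smaller share of one-sided peaks than of shared peaks lay at gene starts. A peak within 1 kb of a gene start was counted as being at the start. At starts were 27 of 35 (77.1%) one-sided and 87.9% of shared D1240A peaks, and 490 of 630 (77.8%, interval 74.3% to 81.0%) one-sided and 88.2% (87.5% to 88.9%) of shared F1295A peaks. Inside genes lay 12.1% of one-sided and 6.79% of shared F1295A peaks. These shares lay nearer together among weak peaks. Within the weakest 20% of the F1295A list, 77.7% of the 613 one-sided and 83.9% of the 1034 shared peaks were at starts. Signal was not matched there, since the median percentile was 4.75 for one-sided and 13.2 for shared peaks.

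The WT and TKO lists, which the comparison did not use, held many of the one-sided peaks. WT had a peak at 27 of the 35 (77.1%) D1240A peaks and at 363 of the 630 (57.6%) F1295A peaks. TKO had one at 8 (22.9%) of the D1240A peaks and at 104 (16.5%) of the F1295A peaks. Shared peaks were found in WT at 99.5% and in TKO at 93.4%. In the weakest 20% of the F1295A list, WT overlapped 57.4% of one-sided peaks (interval 53.4% to 61.4%) and 97.2% of shared ones (96.0% to 98.1%). One-sided peaks were the weaker within this part too, at a median percentile of 4.75 against 13.2. Shared peaks by definition already had a call in D1240A, and the part of signal in this gap was not tested. A total of 240 F1295A peaks and 6 D1240A peaks stood in no other H3K4me3 list.

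H3K27me3, the Polycomb mark of silent genes, was a further readout outside the rule. Of the 630 one-sided F1295A peaks, 43 (6.83%) overlapped a WT H3K27me3 peak and 34 (5.40%) a TKO one, compared with 2.02% and 2.00% of shared F1295A peaks. Within the weakest 20%, where signal was again not matched, the WT shares were 6.53% of one-sided (interval 4.70% to 8.78%) and 2.32% of shared peaks (1.49% to 3.43%). Overlap with the D1240A H3K27me3 list was 2.38% for one-sided and 0.946% for shared F1295A peaks, and with F1295A's own H3K27me3 list 2.22% for one-sided and 1.12% for shared ones. Most one-sided peaks overlapped no H3K27me3 peak of these lists.

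The X chromosome had the highest share of one-sided F1295A peaks. There 33 of 201 (16.4%, interval 11.6% to 22.3%) were one-sided, against 597 of 8038 (7.43%, 6.86% to 8.02%) on the autosomes. Peaks on X were weaker, with a median percentile of 24.1 against 50.7 on autosomes. Among peaks in the weakest 20% of the list, 36.4% were one-sided on X and 37.3% on autosomes, so the share on X was no higher at that signal.

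The strongest F1295A peak of all had no D1240A counterpart. It was chosen for description after its value was seen. This peak, chr1:156735587-156753857, spanned 18271 bp over the starts of HDGF, which encodes a heparin-binding growth factor, and MRPL24, a mitochondrial ribosomal protein. D1240A had no peak there. The strongest WT peak lay there, 17011 bp wide, and so did the strongest TKO peak, 6162 bp wide, over HDGF. TKO also had a separate peak of 3077 bp over MRPL24. The neighbouring genes were marked in both forms. The peak over ISG20L2 and METTL25B stood at percentile 99.6 in D1240A and in F1295A, and that over PRCC at percentile 99.4 in D1240A and percentile 99.3 in F1295A. The gap lay between 2 of the strongest D1240A peaks. The list gives only called peaks, so the signal that D1240A had in this stretch is unknown.

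H3K27me3 differed around the same place. D1240A had an H3K27me3 peak of 99.7 kb over the starts of HAPLN2 and BCAN, brain matrix genes, and of CRABP2, a retinoic acid-binding protein gene, and another of 69.3 kb over INSRR, an insulin receptor-related gene. TKO had domains over both stretches, of 103 and 157 kb. F1295A and WT had no H3K27me3 peak at either. Within the first domain D1240A had a one-sided H3K4me3 peak of 12149 bp at percentile 40.8, the strongest one-sided peak of its list, which WT and TKO also had with 9097 and 3286 bp. In the other domain F1295A had a one-sided H3K4me3 peak of 9853 bp over the start of INSRR. A further strong peak, 16804 bp wide over MEF2D in WT and 7277 bp wide within that stretch in TKO, was in neither the D1240A nor the F1295A list.

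**Figure D2:**
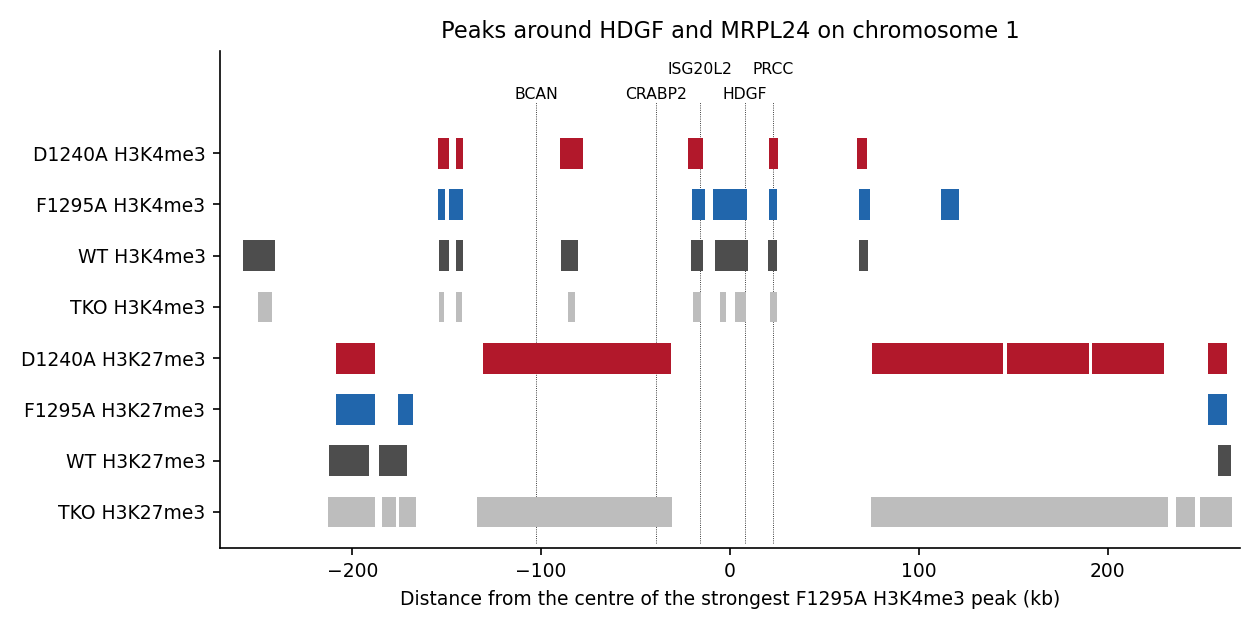
Peaks of the 8 lists around HDGF and MRPL24 on chromosome 1, drawn to scale as distance (kb) from the centre of the strongest F1295A H3K4me3 peak; each row is a list, boxes are called peaks, and dotted lines mark gene starts. An H3K4me3 box spans distance 0 in F1295A and WT. TKO has separate H3K4me3 boxes on either side of 0 within that stretch, and D1240A has none there. The wide H3K27me3 boxes on both sides are present in D1240A and TKO.

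NSD2 itself was marked at its start in both forms, with 3953 bp at percentile 23.5 in D1240A and 4140 bp at percentile 25.04 in F1295A. WT had 4494 bp there and TKO 3698 bp. A second peak was found in F1295A, again chosen after its value was seen. It lay at chr4:1978176-1979218, inside the NSD2 record (chr4:1871393-1982192, plus strand) and 2.97 kb before its end. The peak was only 1043 bp wide, but its highest signal of 4374 was the highest of the F1295A list. The F1295A H3K27me3 list also had a narrow peak there, of 263 bp, with the 5th highest signal of that list. No other list had a peak at this site. The site was narrow with both antibodies. Reads from the gene itself and from any introduced NSD2 sequence cannot be told apart in the list, so the peak may not reflect chromatin at this position. FGFR3, the receptor gene beside NSD2 that t(4;14) can also activate, had an H3K4me3 peak of 11153 bp in F1295A and of 6427 bp in WT, and none in D1240A or TKO. Both peaks were weak, at percentile 22.3 of total signal in F1295A and percentile 2.49 in WT. By highest signal they ranked 8236 of 8239 in F1295A and 8139 of 8140 in WT, so both calls were near the floor of their lists. H3K27me3 covered its start in all 4 forms.

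At the level of genes, most genes had the same call in both forms. Of 19974 protein-coding genes, 8094 (40.5%) had a peak within 1 kb of the start in both forms and 11251 (56.3%) in neither. D1240A alone marked 43 genes (0.215%) and F1295A alone 586 (2.93%). Of these, 32 D1240A genes and 530 F1295A genes lay under one-sided peaks. The other 11 and 56 lay under a shared peak that reached the start in a single form. With no peak allowed within 10 kb of the gene in the other form, 23 D1240A genes (0.115%) and 434 F1295A genes (2.17%) remained. Taking equal peak numbers gave 163 D1240A and 254 F1295A genes. This setting shortened the F1295A list alone. By construction it therefore kept all 43 D1240A genes and drew its 254 F1295A genes from the 586, so that overlap is not a check of either set.

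Genes with H3K4me3 in D1240A and none within 10 kb in F1295A stood low in the list. EVC and EVC2 shared a peak of 6482 bp at chr4:5707382-5713863, at percentile 18.0 of D1240A, and neither WT nor TKO had a peak there. MOCS2, a gene of molybdenum cofactor synthesis, had 1840 bp at percentile 15.0 and 2830 bp in WT. AGRN, which encodes the matrix proteoglycan agrin, had 10368 bp at percentile 10.6 in D1240A and 4672 bp in WT. AGRN was also the single gene of this kind with H3K27me3 in D1240A, and it had that mark in F1295A too. NLK and STK38L, both protein kinase genes, ZFX, an X-linked transcription factor gene, MIER2 and CMSS1 stood between percentiles 3.02 and 8.26, and each had a peak in WT and none in TKO. ATRX, which encodes a chromatin remodeller that deposits histone H3.3, stood at percentile 2.54 with 3240 bp and had a peak in no other H3K4me3 list. All of these genes thus stood in the lowest 25% of the D1240A list.

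Another 3 one-sided D1240A peaks stood outside gene starts within a single stretch of chromosome 5, chr5:69844014-69845440, chr5:70400901-70402720 and chr5:70584915-70586539. They were 1427, 1820 and 1625 bp wide, and WT had a peak at each. This stretch is known for near-identical duplicated segments, and reads there can be placed in more than 1 copy, so these calls are uncertain. They were picked out after their values were seen.

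Genes with H3K4me3 in F1295A and none within 10 kb in D1240A reached higher in the list. ADAMTSL4 and LOC124904417 lay under a 33236 bp peak at percentile 99.9 that is described below with MCL1. FOXO6, a forkhead transcription factor gene, had 8793 bp at percentile 47.3 in F1295A and 3274 bp in WT. BSCL2, whose product seipin acts in lipid droplet formation, shared a peak of 5794 bp at percentile 36.8 with GNG3, a G protein subunit gene. No WT or TKO peak marked that pair. EOLA2 had 4783 bp at percentile 35.6 in F1295A, 2294 bp in WT and 1734 bp in TKO, the single one of these 10 with a TKO peak. FCHO1, a gene of clathrin-mediated endocytosis, had 5426 bp at percentile 28.9, and ARMC12, under a peak shared with FKBP5, had 6169 bp at percentile 24.9. Neither start had a WT or TKO peak within 1 kb, although a WT peak overlapped the FCHO1 peak farther inside the gene. SEPTIN8, a septin cytoskeleton gene, and PHYH, of peroxisomal fatty acid oxidation, stood at percentile 24.6 and 24.4 in F1295A, and had 2569 and 2239 bp in WT, among its weakest peaks.

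Among genes with H3K4me3 in F1295A alone, 5 of 586 (0.853%) had H3K27me3 at the start in D1240A and not in F1295A, compared with 0.506% of all genes. They were INSRR, LRP2, an endocytic receptor gene, IMPDH1, of guanine nucleotide synthesis, PSCA and GRIN2D, an NMDA receptor subunit gene, named for this pattern after the values were seen. IMPDH1 and GRIN2D lay at shared loci, where D1240A had H3K4me3 peaks of 3665 and 2072 bp. These D1240A peaks did not come within 1 kb of the start, so H3K4me3 was not missing from these loci. The reverse, H3K27me3 in F1295A and not in D1240A, held for 2 of the 586 (0.341%), BATF3 and KLHL29, compared with 0.861% of all genes. A total of 16 of the 586 (2.73%) had H3K27me3 in both forms, among them SDC1, FGFR3, TENM4, BMP1 and ACTN3. Across all genes that share was 4.01%. Of the 43 genes with H3K4me3 in D1240A alone, none had H3K27me3 in a single form.

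Promoters of marked genes were CpG-rich beside those of unmarked genes in each class. RefSeq windows were at hand for 31 genes marked in D1240A alone, 462 in F1295A alone, 6721 in both and 8598 in neither. Median G or C content was 60.0% for D1240A alone, 67.0% for F1295A alone, 66.3% for both and 58.3% for neither. The ratio of observed to expected CpG was 0.798 for D1240A alone, 0.826 for F1295A alone, 0.878 for both and 0.5002 for neither. The motif GGGCGG, bound by SP factors, was read on both strands and lay in 67.7% of the D1240A windows, 74.0% of the F1295A windows, 75.5% of windows marked in both and 58.5% of all 15812. CCGGAAG, an ETS motif, was in 16.1% of D1240A windows, 16.02% of F1295A windows, 22.7% of windows marked in both and 14.2% of all. The TATAAA motif was in 9.68% of D1240A windows, 5.41% of F1295A windows, 4.58% of windows marked in both and 9.64% of all. The EVC and EVC2 windows held GGGCGG and CCGGAAG, the ADAMTSL4 window held GGGCGG, and no match to the 8 motifs searched was found in the LOC124904417 window.

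Gene lists were described by their counts. Cell adhesion is named in the title of the series. Of 54 cadherins and non-clustered protocadherins, 8 were marked in both forms, 0 in D1240A alone and 1 (1.85%) in F1295A alone. The single gene was PCDH7, a protocadherin gene, with 4792 bp at percentile 11.2 in F1295A and 5594 bp at percentile 39.7 in WT. Of 26 integrins, 8 were marked in both and 0 in a single form. ITGB7, an integrin subunit of myeloma cells, had 11149 bp in D1240A and 16173 bp in F1295A. ITGA4, ITGB1, ITGAV and ITGAL, also subunits of adhesion receptors, were marked in both forms too. Of 44 immunoglobulin-type adhesion molecules and selectins, 10 were marked in both and 2 (4.55%) in F1295A alone, namely F11R, a tight junction gene with 2868 bp at percentile 10.1, and ICAM4, reached by the edge of a shared peak. Of 59 extracellular matrix genes, 7 were marked in both, 1 (1.69%) in D1240A alone, which was AGRN, and 3 (5.08%) in F1295A alone, which were ADAMTSL4, TENM4 and VTN. TENM4, a teneurin gene, stood at percentile 0.498 in F1295A. These shares stand beside 0.215% and 2.93% over all genes.

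**Figure D3:**
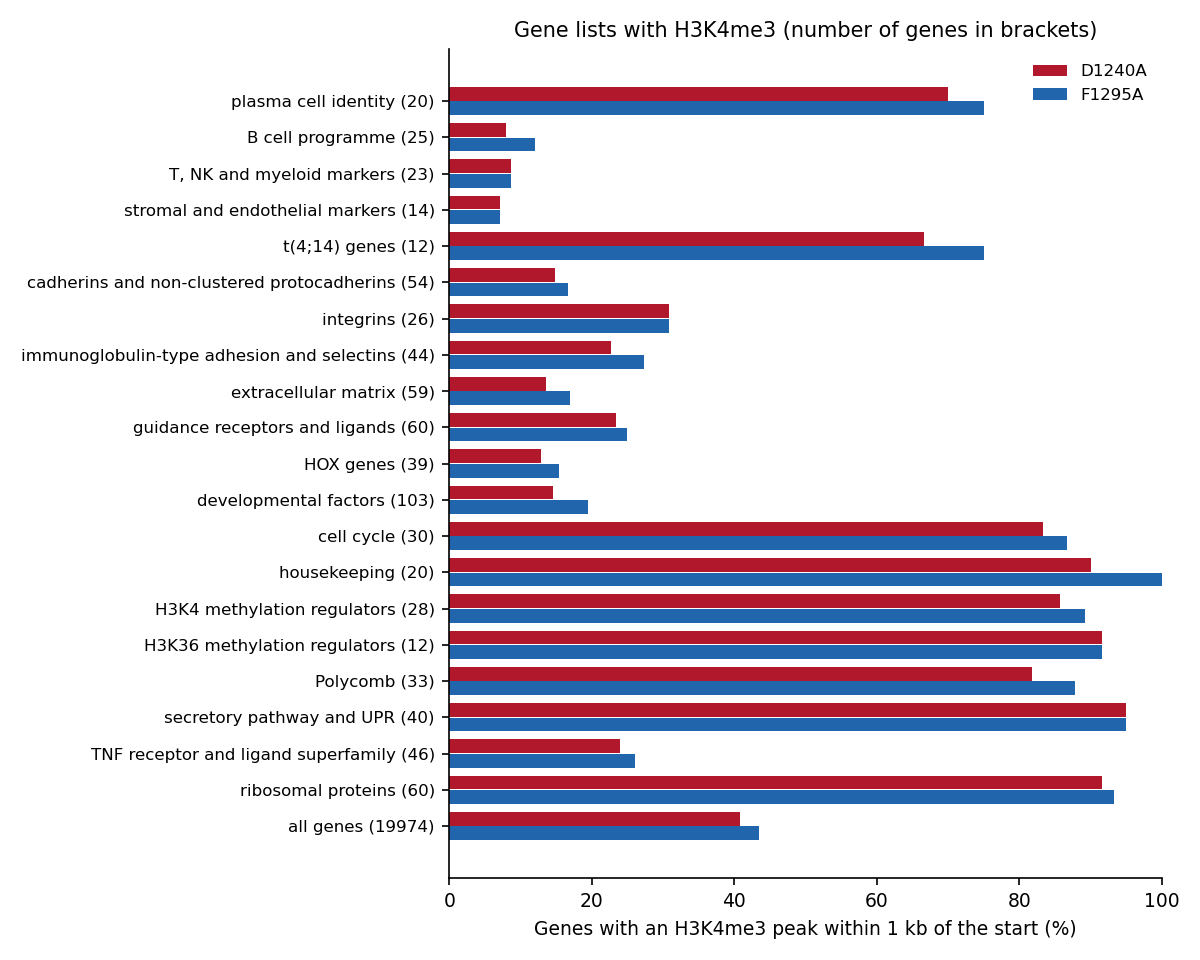
Share of each gene list (%, number of genes in brackets) with an H3K4me3 peak within 1 kb of the start, D1240A above F1295A in each pair of bars; 1 library per form, and lists were chosen with earlier results known. The bars of a pair differ by at most 5 genes in any named list, as for the 103 developmental factors with 15 in D1240A and 20 in F1295A.

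Among guidance receptors and ligands, 14 of 60 were marked in both forms and 1, the semaphorin gene SEMA6A, in F1295A alone. Of 39 HOX genes, 5 were marked in both and 1, HOXD12, in F1295A alone. Of 103 other developmental factor genes, 15 were marked in both and 5 (4.85%, beside 2.93% of all genes) in F1295A alone, among them SIX2, DLX2, TBX2 and OLIG1. These 4 stood between percentiles 0.449 and 13.6 of F1295A, and SIX2 and TBX2 had peaks in WT. Of 46 TNF receptor and ligand genes, 11 were marked in both and 1, the death receptor gene TNFRSF10B, in F1295A alone, with 5590 bp at percentile 9.32.

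SDC1, which encodes the plasma cell surface proteoglycan CD138, was the single plasma cell gene marked in 1 form. It had 3204 bp at percentile 18.2 in F1295A and 2799 bp at percentile 9.80 in WT, and no peak in D1240A or TKO. Of 20 housekeeping genes, 18 were marked in both and 2 (10.0%, beside 2.93% of all genes) in F1295A alone. POLR2A, which encodes the largest subunit of RNA polymerase II, stood at percentile 1.72 in F1295A, and ALAS1, of haem synthesis, at percentile 5.18. RPL26, 1 of 60 ribosomal protein genes, stood at percentile 2.77 and also had peaks in WT and TKO. These are genes that every cell uses, and the absence of a call in D1240A is not a measured absence of the mark.

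Genes that write, read or remove the marks were mostly marked in both forms. Over all genes, 40.5% were marked in both forms and 2.93% in F1295A alone. Of 28 H3K4 methylation regulators, 24 were marked in both forms and 1, SETD1B, in F1295A alone, because the edge of a peak at percentile 54.7 came within 1 kb of its record. KMT2A and KMT2D, the MLL methyltransferases, had 5208 and 5819 bp in D1240A and 5984 and 6642 bp in F1295A. Of 12 H3K36 regulators 11 were marked in both, including NSD1, NSD3 and SETD2. Of 33 Polycomb genes, 27 were marked in both and RBBP7 and RYBP, at percentiles 1.89 and 0.668, in F1295A alone. All of the 38 marked genes among 40 of the secretory pathway and unfolded protein response were marked in both.

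At shared peaks, D1240A was slightly narrower at most places. Overlapping peaks formed 7597 shared loci, of which 7514 paired a single peak of each list. Median width was 3357 bp in D1240A and 3756 bp in F1295A, and D1240A was the narrower at 5459 loci (71.9%). The median log2 ratio of widths, D1240A over F1295A, was -0.13, and widths below are given relative to this shift. From the 5th to the 95th percentile, the centred log2 ratio ran between -0.54 and 0.41. Past 2-fold were 60 loci narrower in D1240A (0.79%) and 10 wider (0.132%), and without centring 99 were narrower and 4 wider. At the limit of 2-fold, HSPA4L was just inside with -1.001 and PNPLA2 just outside with -0.986, while APH1A was just inside with 1.01 and PACS2 with BRF1 just outside with 0.94. Of loci at least 6 kb wide, 557 were so in both forms, 84 in D1240A alone and 417 in F1295A alone. Summits of the 2 forms lay a median of 47 bp apart.

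The locus of MCL1, a BCL2-family survival factor on which myeloma cells depend, had the largest difference of width. It covered 6807 bp in D1240A and 33236 bp in F1295A (centred log2 -2.15), 20208 bp in WT and 9605 bp in TKO. MCL1 itself was marked in all 4, while the F1295A peak alone reached ADAMTSL4 and LOC124904417. INTS11, the nuclease of the Integrator complex, with CPTP and TAS1R3, covered 3243 bp in D1240A and 15378 bp in F1295A (-2.11). WT and TKO, with 4557 and 3889 bp, stood near D1240A. ELOB, which encodes elongin B, covered 3241 bp in D1240A and 12362 bp in F1295A (-1.80), 5019 bp in WT and 3283 bp in TKO. EXOSC6, a subunit of the RNA exosome, covered 2980 bp in D1240A and 9298 bp in F1295A (-1.51). CIAO3, of iron-sulphur protein assembly, covered 3174 bp in D1240A and 9667 bp in F1295A (-1.47). GDF11, a TGF-beta family ligand, covered 3582 bp in D1240A and 10719 bp in F1295A (-1.45). At these the WT widths were 4464, 2638 and 4523 bp, nearer D1240A each time. PEX19, of peroxisome assembly, covered 2903 bp in D1240A and 8318 bp in F1295A (-1.39). GIT1 with ANKRD13B covered 3097 bp in D1240A and 8652 bp in F1295A (-1.35), and WT, with 7714 bp, was nearer F1295A there, as at MCL1.

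Across the 60 narrower loci, median width was 2968.5 bp in D1240A and 7329 bp in F1295A, with 3318 bp in WT and 2482 bp in TKO. WT was nearer D1240A than F1295A at 50 of the 60, and TKO at all 51 it shared, compared with 56.3% and 70.9% of all shared loci. The 60 were chosen for an F1295A peak much wider than that of D1240A, which by itself tends to place another list nearer D1240A. All shared loci were not chosen in this way, so these shares do not show which form WT or TKO resembles. Chromosome 1 held many of the 60 loci. Of the 60, 17 were on chromosome 1 and 12 of these in the 12 Mb that begin at 150 Mb, a segment that holds 117 of the 7597 shared loci. It includes MEX3A with LMNA with 2957 bp in D1240A and 6567 bp in F1295A, and THBS3 with MTX1 with 3463 bp in D1240A and 9567 bp in F1295A, named after their values were seen. At THBS3 with MTX1, WT had 9749 bp, near F1295A. The same segment held 2 of the 10 wider loci, ILF2 and APH1A.

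**Figure D4:**
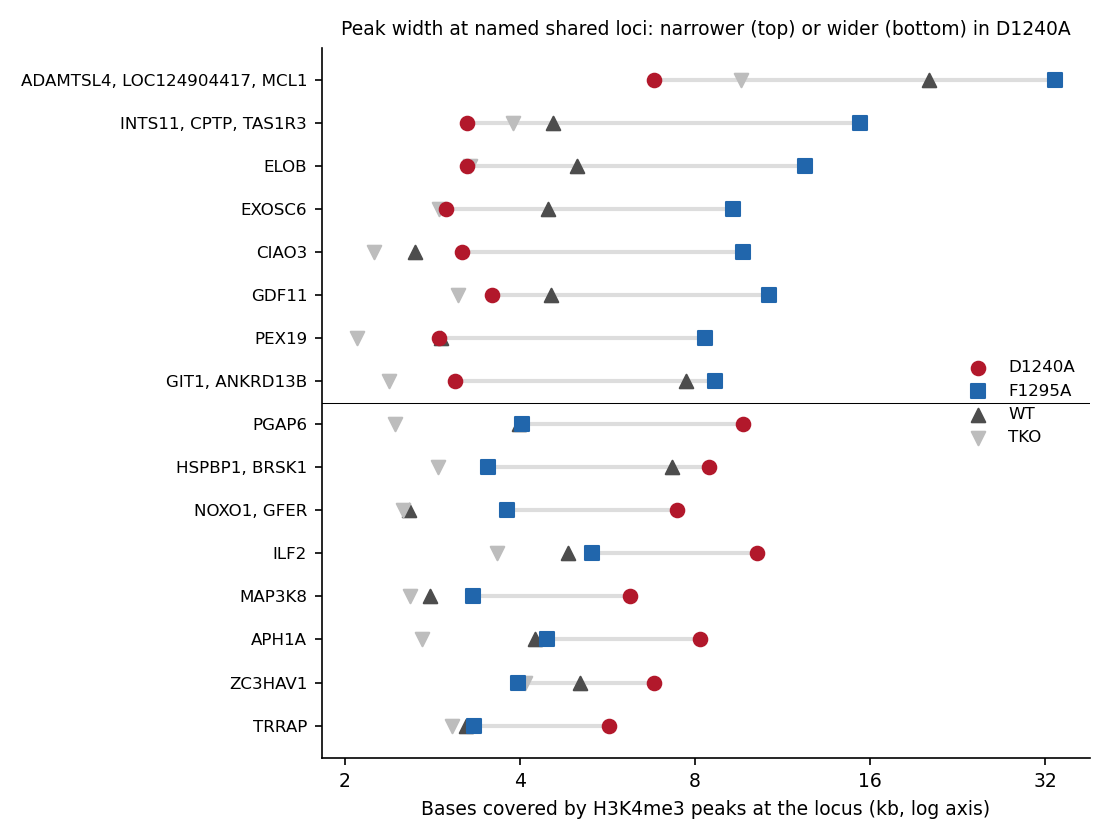
Bases covered by H3K4me3 peaks (kb, log axis) at the 8 named loci narrower and the 8 wider in D1240A, with D1240A as circles, F1295A as squares, WT as upward and TKO as downward triangles; 1 library per point. At the MCL1 locus D1240A covers 6807 bp and F1295A 33236 bp, and at most narrower loci WT and TKO lie on the D1240A side. The loci were chosen for the difference between D1240A and F1295A, so that side does not show which form WT or TKO resembles.

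The 10 wider loci had a median width of 7683 bp in D1240A and 3425 bp in F1295A, and of 4070.5 bp in WT and 2601 bp in TKO. WT was nearer D1240A at 3 of 10, and TKO at 0 of 8. These loci were chosen for a wide D1240A peak, so the shares have the same limit. PGAP6, of GPI-anchor processing, covered 9662 bp in D1240A and 4028 bp in F1295A (centred log2 1.39), with 3990 bp in WT. HSPBP1, an HSP70 cochaperone gene, with BRSK1 covered 8442 bp in D1240A and 3525 bp in F1295A (1.39), with 7290 bp in WT. ILF2, an RNA-binding protein gene, covered 10227 bp in D1240A and 5323 bp in F1295A (1.07). MAP3K8, a kinase of inflammatory signalling, covered 6176 bp in D1240A and 3325 bp in F1295A (1.03). NOXO1 with GFER and APH1A, a gamma-secretase gene, were past 2-fold as well, and ZC3HAV1, an antiviral factor gene, and TRRAP, of histone acetyltransferase complexes, were below it at 0.91 and 0.90. Without centring ILF2, MAP3K8, NOXO1 and APH1A fell short of 2-fold, at 0.87 to 0.97. EHMT2, which encodes the H3K9 methyltransferase G9a, with ZBTB12 covered 7910 bp in D1240A and 2986 bp in F1295A (1.54), the largest value, but was outside the naming rule.

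Within-list rank by total signal was close in the 2 forms for most loci. Each locus was ranked by total signal among the 7597 shared loci of each list. Spearman's correlation over loci was 0.979 as a description, and 67.7% of loci lay within 5 percentile points. Over 25 points lower in D1240A were 13 loci (0.171%) and over 25 points higher 5 (0.0658%). These counts depended on the signal ranked, with 71 lower and 163 higher by highest signal and 344 lower and 401 higher by mean signal per base. IL32 was just inside this limit with -25.02 and SERINC3 just outside with -22.1, and TAF4 was just inside with 25.3 and POLR2C just outside with 23.4. Of the 100 highest loci of D1240A, 88 were among the 100 highest of F1295A.

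The largest rank difference at a gene start was at DGAT1, of triglyceride synthesis, with SCRT1, at percentile 16.4 in D1240A and percentile 60.4 in F1295A. NFATC1, a transcription factor gene of lymphocyte activation named after its value was seen, stood at percentile 21.4 in D1240A and percentile 60.9 in F1295A. ANO8 with GTPBP3 stood at percentile 43.7 in D1240A and percentile 73.0 in F1295A. IMPDH1 stood at percentile 47.1 in D1240A and percentile 76.2 in F1295A. All 4 were also narrower in D1240A, and 6 of the 13 loci were narrower past 2-fold. By mean signal per base, DGAT1 was 0.487 points higher in D1240A, ANO8 15.8 points and IMPDH1 10.3 points. Total signal is width times mean signal per base, and at these 3 loci the lower rank by total signal went with narrower peaks. By highest signal the 3 were also lower in D1240A, by 0.388 points at DGAT1, 14.3 at ANO8 and 7.38 at IMPDH1. IL32, a cytokine gene, SH3RF3, and ADM, the adrenomedullin gene, with SBF2 were among the weakest D1240A loci, at or below percentile 5.67, and at percentiles 28.2 to 33.3 in F1295A. By highest signal these 3 loci differed by at most 2.16 points between the forms. Their highest signals were low in both lists, 115 to 120 in D1240A and 160 to 227 in F1295A. The list medians were 413 in D1240A and 494 in F1295A, so this rank had little room to differ. By mean signal per base IL32 and ADM differed by at most 1.70 points, so that the calls at IL32 and ADM rest on total signal. SH3RF3 was 30.9 points lower in D1240A by mean signal per base, so its call was kept by that measure and lost by highest signal.

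At some loci higher in D1240A, rank by height differed as well. TMEM63B with MRPL14, a mitochondrial ribosomal protein gene, stood at percentile 61.6 in D1240A and percentile 24.7 in F1295A. Its width was 2874 bp in D1240A and 3372 bp in F1295A. This locus stood 75.4 points higher in D1240A by highest signal and 53.6 points higher by mean signal per base. SPOP, a ubiquitin ligase adaptor gene, stood at percentile 39.9 in D1240A and percentile 18.2 in F1295A, and was 63.97 points higher by highest signal and 26.5 points by mean signal per base. PPP4R2 and PPP2R2A, phosphatase regulatory subunit genes, NPAS3, a transcription factor gene, EPC1, of the NuA4 acetyltransferase, and MED13L, of Mediator, were 19.7 to 22.3 points higher, short of the limit, and kept that direction by highest signal and by mean signal per base. HSPBP1 with BRSK1 stood at percentile 59.3 in D1240A and percentile 24.997 in F1295A, but 19.6 points lower in D1240A by mean signal per base.

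**Figure D5:**
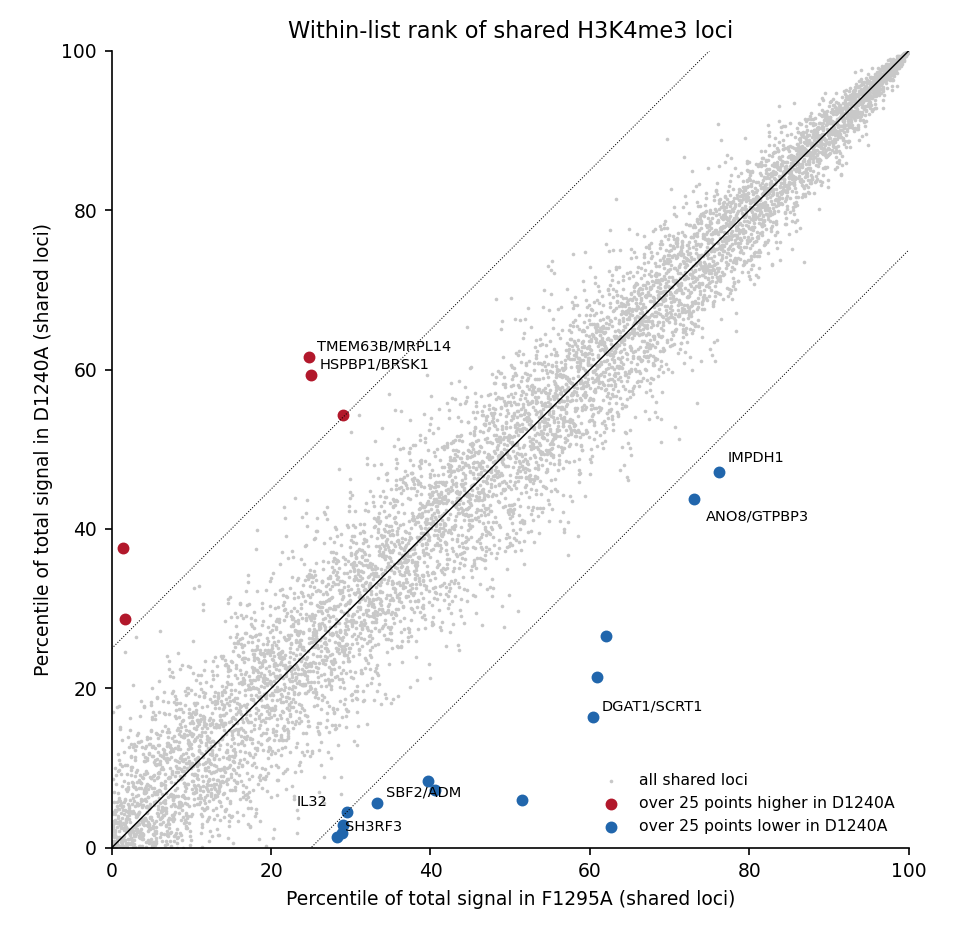
Percentile of total signal in D1240A (vertical) and F1295A (horizontal) for the 7597 shared H3K4me3 loci, 1 point per locus; the solid line marks equal rank and dotted lines 25 points. Coloured points are the 5 loci higher and the 13 lower in D1240A past 25 points, with names for those the naming rule covers.

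Rank differences also varied by chromosome and base composition. The median difference, D1240A minus F1295A, was -2.01 points over the 488 loci of chromosome 19, -1.51 on chromosome 22 and -1.20 on chromosome 16, and 2.18 on chromosome 13. Loci on chromosome 19 were also narrower, with a median centred log2 width of -0.10. Over 5687 loci with a RefSeq promoter window, the rank difference had a Spearman correlation of -0.13 with G or C content, as a description, and width one of -0.04. Median rank differences by quartile of G or C content, low to high, were 1.07, 0.16, -0.22 and -0.29 points. Its part in the rank differences was not tested.

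Most gene lists at shared loci stayed near the all-gene medians of -0.002 for centred log2 width and 0.08 points for rank. Over 14 plasma cell loci the medians were 0.04 and -2.47 points, and over 38 secretory pathway loci 0.04 and -0.27 points. Median width lay furthest off at the 2 B cell loci (-0.32) and the 8 extracellular matrix loci (-0.26). Of these 8, 2 were narrower in D1240A past 2-fold, beside 0.79% of all shared loci. In the other direction the largest median was 0.15, at 1 stromal and endothelial locus. The 14 guidance receptor and ligand loci had a median rank difference of -6.21 points, the 10 immunoglobulin-type adhesion loci -4.26 and the 11 TNF receptor and ligand loci -3.53. No locus of these 3 lists was past 25 points. Among shared loci, MYC stood at percentile 83.8 in D1240A and percentile 87.8 in F1295A, and CCND2, the cyclin gene of many t(4;14) myelomas, at percentile 93.5 in D1240A and percentile 92.6 in F1295A. Among common controls, GAPDH stood at percentile 73.8 in D1240A and percentile 80.0 in F1295A, and ACTB at percentile 65.9 in D1240A and percentile 72.8 in F1295A. These 2 were at the low end of the 18 housekeeping loci, whose rank differences ran between -6.98 and 12.4 points with a median of -1.80.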

How the data were processed

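H3K4me3 and H3K27me3 were measured by ChIPmentation, and 16 samples in 12 groups were reduced by the authors to 8 peak lists, of which the 2 H3K4me3 lists named above were compared. The submitters' processing notes name the build GRCh38 and the tools SEACR 1.3, Bowtie2 2.4.5, Trimmomatic 0.36 and FastQC 0.11.4. How peaks were called (mode, control, threshold) and whether coverage was scaled is not given in the sources used here. The deposited lists give the total and the highest signal (coverage) of each peak, as the authors' peak caller wrote them. The highest signal of the deposited H3K27me3 lists, which combine 2 samples each in an unstated way, was read as a score for ranking. The IgG samples were not used here.

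Overlaps (at least 1 bp), shared loci (connected groups of overlapping peaks), covered bases and ranks were computed in Python 3.11.15 with numpy 2.4.6, pandas 2.3.3 and scipy 1.17.1, drawn with matplotlib 3.10.9 and tested on simulated data. Gene starts came from the RefSeq promoter windows (GRCh38.p14) for 15812 of 19974 protein-coding genes. The other 4162 were read at either end of the record, since no strand was at hand. All 760 entries of 21 gene lists matched.

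Named were the 10 genes per direction with a peak within 1 kb of the start in 1 form and no peak within 10 kb in the other, by percentile of total signal, up to 4 such genes per list, and genes always reported. Added to these were the 8 largest width and rank differences per direction at loci above the 25th percentile of covered bases in both lists. The members and lists were chosen with earlier results of these data known. Alternatives were 50% coverage, joining within 5 kb, peaks of at least 1 kb, the stronger 50%, equal peak numbers, no centring, single-peak loci, at least 1 kb covered at a locus, other signal columns, a 2.5 kb window, either gene end and no chromosome 1 segment. Some genes are not reported here.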

Additional observations from a re-analysis of the deposited data

How the results depend on the processing

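Equal peak numbers gave 175 one-sided D1240A peaks and 243 F1295A peaks, so that 41.9% of one-sided peaks were of D1240A, and 163 D1240A and 254 F1295A genes, of which 39.1% were of D1240A. The stronger 50% of each list gave 94 D1240A and 391 F1295A peaks, 19.4% of them of D1240A. By construction, equal numbers raise the lower bound of the F1295A list and the stronger 50% that of both. Without centring, 99 loci were narrower and 4 wider in D1240A. Ranks by highest signal put 71 loci lower and 163 higher in D1240A, and ranks by mean signal per base 344 lower and 401 higher, and the cause was not tested. Allowing the other form no peak within 10 kb left 23 D1240A genes. By mean signal per base the rank difference changed sign at DGAT1 with SCRT1 (0.487), ANO8 with GTPBP3 (15.8), IMPDH1 (10.3), TMEM121 (1.11) and HSPBP1 with BRSK1 (-19.6). By highest signal, DGAT1, ANO8, IMPDH1, ADM, SH3RF3, IL32 and HSPBP1 came within 25 points, and without centring NOXO1, ILF2, MAP3K8 and APH1A came within 2-fold. The other settings left the counts within 1.5 times those reported. Among them, the 1 kb limits on peak width and on covered bases removed no peak or locus, so they could not move the counts. No paired analysis was possible because each form had 1 H3K4me3 sample and no result came from a test. Depth is unknown, so library depth and calling threshold cannot be told apart as sources of list length, and no difference between the forms had a replicate check.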

Other observations

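Most of the strongest H3K4me3 peaks were held in common. None of the 100 strongest D1240A peaks was missing from the F1295A, WT or TKO lists, and of the 100 strongest F1295A peaks 1 was missing from D1240A, the HDGF and MRPL24 peak. Of the 100 strongest WT peaks, 2 were missing from D1240A, at HDGF and MEF2D, and 1 from F1295A, at MEF2D. Of the 100 strongest TKO peaks, 2 were missing from D1240A and 1 from F1295A, in the same stretches. The peak at HDGF was the strongest of the F1295A, WT and TKO lists. Some loci were split differently. At 71 shared loci D1240A had more peaks than F1295A, and at 5 fewer. An example, chosen after its value was seen, is BAZ2A with ATP5F1B, where 2 D1240A peaks covered 14018 bp and 1 F1295A peak covered 18818 bp. ASH1L, an H3K36 methyltransferase gene, stood at percentile 99.99 in D1240A and 99.93 in F1295A.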
